A study of Drosophila melanogaster with 12 samples.

Results

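A set of 7 transcription factor genes that mark or specify subsets of Drosophila melanogaster neurons were followed through the deposited peak lists and the RNA table: zfh1, zfh2, tj, fkh, unpg, B-H1 and B-H2. They were taken by FlyBase symbol and turned into FlyBase gene identifiers, and all 7 were found among 13922 protein-coding genes of the main chromosome arms. Measured values played no part in the rule that names them, although results of these data were known when they were named. All samples came from the central nervous system of wandering larvae of the third instar.

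The binding assay was targeted DamID, in which a bacterial adenine methylase (Dam) fused to a protein methylates GATC sites close to where the protein binds. The samples were 2 of Dam alone (Dam-only), 2 of Dam fused to Scalloped (Dam-Sd) and 2 of Dam fused to Nerfin-1 (Dam-Nf). All 3 of these groups carried tubGal80TS, GMR31H08-Gal4 and UAS-GFP, and each had its Dam transgene in pUAST-LT3 at attP2. Eggs were laid at 25°C, animals were kept at 18°C for 4 days, and transgenes were released at 29°C for 24 hours before dissection. Open chromatin (ATAC-seq, 3 samples) and RNA (3 samples) came from GFP-positive cells sorted from animals with a nerfin-1 reporter of nuclear GFP (a P element construct, nerfin-1.GFP-NLS.SV-40, labelled iA), reared at 25°C. Each RNA sample is a pool of RNA from sorts on several days. The labels do not say which cells GMR31H08-Gal4 drives in, so binding was read in cells chosen by a driver and open chromatin and RNA in cells chosen by a reporter. Each peak list stands for a whole group, without a score or a value per replicate, so no error can be given for a peak. The RNA libraries, called S1, S2 and S3, held 43555895, 44657928 and 57468071 counts over the genes in the table.

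Neuron subtypes are set up by transcription factors that newborn neurons inherit or switch on and then keep, and many of these are homeodomain proteins that act in combinations. Scalloped (Sd) is the fly TEAD protein, a DNA-binding partner of the Hippo pathway coactivator Yorkie, and Nerfin-1 is a zinc-finger factor of newborn neurons that keeps them from returning to a progenitor state. The members belong to several families. zfh1 and zfh2 encode proteins that combine zinc fingers with homeodomains, and zfh1 is known from motor neurons, mesoderm and glia. tj (traffic jam) encodes a large Maf protein of the basic leucine zipper class, best known from the somatic cells of the gonad. fkh (fork head) encodes the fly FoxA protein, known from salivary gland and gut. unpg (unplugged) encodes a homeodomain protein of the Gbx family, and B-H1 and B-H2 encode the paired Bar homeodomain proteins of eye, sense organs and nervous system.

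Of the 7 genes 4, namely zfh2, tj, fkh and unpg, had a Sd peak and a Nerfin-1 peak in the gene or within 1 kb on either side. zfh1, B-H1 and B-H2 had none of either kind in that window. Over all 13922 protein-coding genes, 35.6% had a Sd peak in the same window, 32.9% a Nerfin-1 peak and 27.7% both. Both fusion proteins share the Dam-only samples in the design, and no source used here says how these entered the peak calls, so the count with both is a description. Longer genes had both more often. With all genes divided by length into 10 classes of equal size, the share with both was 9.33% in the shortest class and 55.0% in the longest. zfh1 and zfh2, of 23277 and 39065 bp, are in the longest class, and the other members lie in classes with shares of 29.0% (tj), 37.1% (fkh, unpg and B-H1) and 43.5% (B-H2). With 7 genes no test was made, and a count of 4 was not distinguished from these shares.

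The authors' deposited lists also pair each peak with gene identifiers, and by this pairing the members differ. zfh1, zfh2, tj and unpg were paired with a Sd peak in the authors' deposited table, against 28.0% of all protein-coding genes. The same 4 genes and fkh were paired with a Nerfin-1 peak, against 25.3%, and 4 members were paired with both, against 20.9%. The identifiers of B-H1 and B-H2 occur in neither list. zfh1 is thus paired with both proteins through peaks that lie beyond 1 kb, which held for 1.37% of all genes. By distance alone, 56.9% of all genes were at least as far from a Sd peak as zfh1 and 52.2% from a Nerfin-1 peak. Unlike zfh1, fkh loses its Sd peak by this pairing, since the Sd peak near it was given to another gene.

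zfh1 (FBgn0004606, 3R, 30765926 to 30789202 on dm6) had its DamID peaks outside the gene. The Sd peak ran from 30759897 to 30763703, was 3807 bp long and ended 2223 bp from the low-coordinate end of the gene. The Nerfin-1 peak began at the same base, was 2299 bp long and lay wholly within the Sd peak. A single ATAC peak of 1237 bp lay inside both. The gene itself with its 1 kb flanks held 5 ATAC peaks and no DamID peak, so none of the open sites nearest the gene carried a peak of either protein. These 5 covered 11.1% of the window, and the last of them overlapped the neighbouring gene wts, which encodes the Hippo pathway kinase Warts. Farther out, toward the neighbour Npc2h, the Sd list had 2 short peaks of 509 and 209 bp that the Nerfin-1 list did not have, 19152 and 14621 bp from the gene.

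At zfh2 (FBgn0004607, chromosome 4, 501810 to 540874) both proteins had a single peak, across the low-coordinate end of the gene. The Sd peak was 2092 bp long, and 1655 bp of it lay in the gene. The Nerfin-1 peak of 1250 bp fell inside it and had 854 bp in the gene. Both peaks overlapped the same 2 ATAC peaks, of 532 and 656 bp. The remaining 9 of 11 ATAC peaks were spread through the rest of the gene, the longest measuring 1927 bp, and met no DamID peak. In a window of 41065 bp the Sd peak covered 5.09%, the Nerfin-1 peak 3.04% and open chromatin 18.9%. In the deposited lists zfh2 therefore had separate ATAC peaks spread over the gene but DamID peaks at 1 end. Its number of ATAC peaks was not unusual for a gene of this length, as given below. The gene Tdg overlaps its high-coordinate end.

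tj (FBgn0000964, 2L, 19464267 to 19467758) had the largest share of its gene and 1 kb flanks under peaks of each protein among the members. A Sd peak of 4050 bp and a Nerfin-1 peak of 4775 bp began at the same base, 19459669, outside the gene. They differed at the other edge, where the Nerfin-1 peak reached 177 bp into the gene and the Sd peak stopped 549 bp before it. The added stretch of the Nerfin-1 peak took in an ATAC peak of 612 bp that spans the gene's edge. Another ATAC peak of 663 bp, farther from the gene, lay in both. A further pair of peaks, with identical boundaries in both lists (19466466 to 19466956, 491 bp), lay inside the gene and overlapped no ATAC peak. In the authors' deposited table this inner pair was given to lncRNA:CR45722, a non-coding gene on the high-coordinate side, so the pairing by gene gives tj only the outer pair. Within the 1 kb window the Sd peaks covered 17.2% and the Nerfin-1 peaks 30.4%. This window of 5492 bp is the shortest among the members. In bases, Sd peaks covered more at zfh2 (2092 bp) than at tj (943 bp). The Sd list alone had a further peak of 716 bp, 2349 bp beyond the gene at lncRNA:CR45723. Beyond it a peak of 9157 bp with the same boundaries in both lists began 7334 bp from tj and reached CG10195.

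fkh (FBgn0000659, 3R, 28580976 to 28585264) had different peaks on its 2 sides. On the low-coordinate side the Nerfin-1 list had a peak of 1476 bp, 672 bp from the gene, with an ATAC peak of 632 bp inside it, and the Sd list had none. On the high-coordinate side both lists had a peak with the same boundaries (28585736 to 28586536, 801 bp), 472 bp from the gene. It overlapped 376 bp of an ATAC peak of 1025 bp that crosses the gene's edge. The authors' deposited table gave this peak to lncRNA:CR43126, which begins at 28586048, and not to fkh. Whether fkh counts as having a Sd peak thus rests on a single peak shared with a non-coding neighbour. Another pair with identical boundaries, of 820 bp, lay 6632 bp from the gene and overlapped no ATAC peak.

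unpg (FBgn0015561, 2R, 9195205 to 9199870) had both kinds of peak at separate places. The Nerfin-1 peak of 848 bp lay within the gene, 1044 bp from its low-coordinate end, and overlapped no ATAC peak. The Sd peak of 1338 bp began 45 bp past the high-coordinate end and contained an ATAC peak of 813 bp. At the low-coordinate edge of unpg an ATAC peak of 493 bp had no DamID peak over it. A stretch with both proteins lay farther out, where a Sd peak of 867 bp and a Nerfin-1 peak of 2575 bp began at the same base. That stretch was given in the authors' deposited table to CG8026, and for Nerfin-1 also to CG45085, the overlapping genes next to unpg.

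B-H1 (FBgn0011758, X, 17397478 to 17403278) and B-H2 (FBgn0004854, X, 17314581 to 17324175) are neighbours with 73.3 kb between them and no other protein-coding gene there. Neither had a DamID peak within 5 kb. The nearest Sd peak to B-H1 was 17.4 kb away and the nearest Nerfin-1 peak 23.0 kb. Over all genes, 19.6% were at least as far from a Sd peak and 15.2% at least as far from a Nerfin-1 peak. From B-H2 the nearest peak of each kind lay 11.7 kb away, inside CG5445, and 26.8% of all genes were at least as far from a Sd peak and 29.2% from a Nerfin-1 peak. Open chromatin was present at both genes. B-H1 had a single ATAC peak of 567 bp across its low-coordinate edge, and B-H2 had 3, of which the longest, 1335 bp, began 2 bp past its high-coordinate end.

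The space between the Bar genes held 21 ATAC peaks of 203 to 1335 bp, with a median of 489 bp, and these covered 14.5% of it. That is 2.86 peaks per 10 kb, against 2.69 along the X and 2.68 over all arms. The space held 1 Sd peak of 653 bp and 1 Nerfin-1 peak of 1164 bp, which did not overlap each other. The Sd peak lay almost wholly in an ATAC peak (652 bp of it), and the Nerfin-1 peak contained an ATAC peak of 317 bp. Both were paired in the authors' deposited table with lncRNA:CR43491, the only other annotated gene in the space, and not with a Bar gene.

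**Figure D1:**
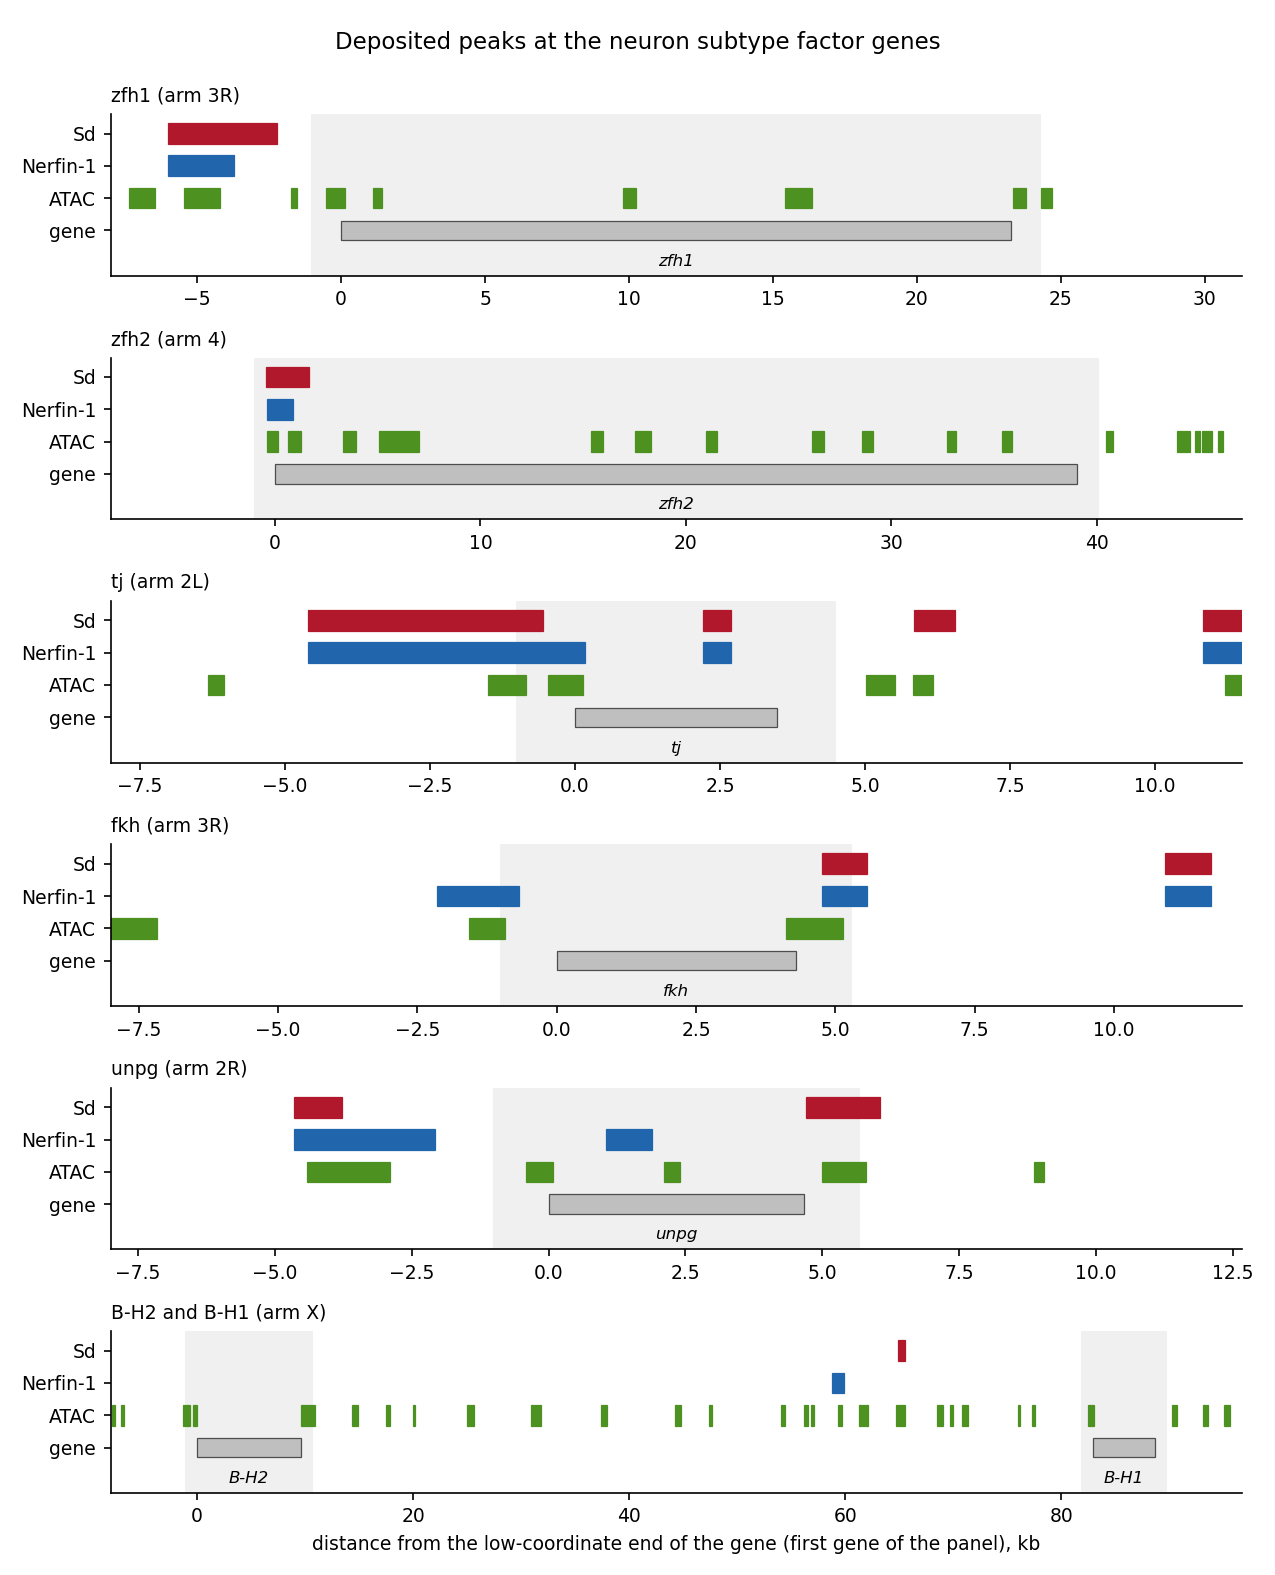
Deposited Sd (red), Nerfin-1 (blue) and ATAC (green) peaks along each member gene (grey box), by distance in kb from the low-coordinate end of the gene, or of B-H2 in the lowest panel. The shaded band is the gene with 1 kb on either side, and peaks past the panel edges are not drawn. zfh1 has its DamID peaks outside the band, zfh2 at 1 end only, unpg at separate places for each protein, and the Bar genes have none in their bands.

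Seen over all members, the windows held 5 Sd peaks, 6 Nerfin-1 peaks and 27 ATAC peaks. Of the Sd peaks 4 of 5 overlapped an ATAC peak, against 78.3% of the Sd peaks that lie in or within 1 kb of any gene. Of the Nerfin-1 peaks 4 of 6 did, against 76.4%. The exceptions were the inner pair of tj and the Nerfin-1 peak inside unpg, all within genes that the RNA table did not list. Of the 27 ATAC peaks, 7 overlapped a DamID peak, against 15.7% of ATAC peaks near genes. The 7 were divided among zfh2, tj and fkh with 2 each and unpg with 1, and none of the 9 ATAC peaks at zfh1, B-H1 and B-H2 was among them. Counts this small were not tested.

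All 7 members had an ATAC peak in the gene or within 1 kb, as did 83.2% of all protein-coding genes. The number per gene followed gene length, so each member was set beside the genes of its own length class. zfh2 had 11 ATAC peaks where the median was 9, and 41.9% of genes of that class had at least as many. zfh1, in the same class, had 5, and 86.6% of genes had at least as many. unpg had 3 where the median was 2 (19.0% had at least as many), and B-H1 had 1 where the median was 2 (96.4%). tj had 2 against a median of 1, while fkh with 2 and B-H2 with 3 stood at the median of their classes.

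**Figure D2:**
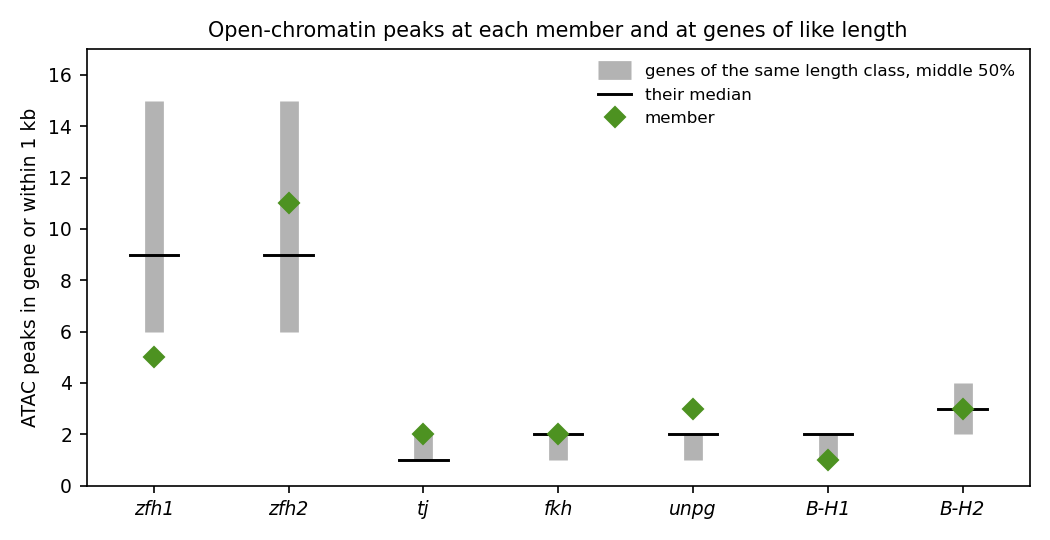
Number of ATAC peaks in each member gene or within 1 kb (green diamonds), with the median (black line) and the middle 50% (grey bar) of genes in the same class of gene length. zfh1, at 5 peaks, lies below the bar of its class and unpg, at 3, above it; the other members lie within theirs.

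Each member's span was also widened to the nearest protein-coding genes that do not overlap it, a setting added after seeing the data. All 7 genes then had at least 1 peak of each protein. At zfh2 the span ran past Tdg, which overlaps the gene, to Pur-alpha. These spans ran from 12.3 kb at unpg to 92.0 kb at B-H2. Among the 4227 genes with spans in that range, 51.2% had both kinds of peak. B-H1 and B-H2 share the space between them, so the same pair of peaks counts for both. In this wider view fkh had 3 Sd and 4 Nerfin-1 peaks with 13 ATAC peaks, and tj had 4 Sd and 3 Nerfin-1 peaks with 8 ATAC peaks. zfh1 had 3 Sd peaks, 1 Nerfin-1 peak and 11 ATAC peaks.

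RNA of 3 members was listed by the authors as expressed in the sorted cells. zfh1, zfh2 and fkh were in the table, and tj, unpg, B-H1 and B-H2 were not, beside 35.5% of all protein-coding genes listed. No source used here gives the rule for listing. The lowest count in the table is 99 and the counts of unlisted genes are not known, so a missing gene was not shown to be silent. Levels are given as counts per 1000000 listed counts (CPM). CPM is not divided by transcript length, which no source used here gives, so levels are not compared between genes.

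For zfh1 the level was 122 CPM in library S1, 157 CPM in S2 and 142 CPM in S3 (140 ± 17.5 CPM, SD, n = 3), from 5303, 6993 and 8140 counts. S1 was the lowest and S2 the highest. For zfh2 the libraries S1, S2 and S3 had 144, 177 and 142 CPM (154 ± 20.1 CPM, SD, n = 3). Here S2 stood above the other libraries. The closeness of S1 and S3 holds for this scaling only, since with TMM they lay at -0.04 and -0.18 from the mean of the 3 on the log2 scale and with DESeq2's size factors at the same rounded values. For fkh they had 176, 183 and 179 CPM (179.7 ± 3.66 CPM, SD, n = 3), the narrowest spread of the 3 genes.

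The spread of zfh1 and zfh2 was larger than counting error. The SD was 12.5% of the mean for zfh1 and 13.0% for zfh2, while counting error alone gives 1.21% and 1.16%. For fkh these were 2.04% and 1.07%. From lowest to highest library zfh1 ranged over 0.36, zfh2 over 0.32 and fkh over 0.06 on the log2(CPM + 1) scale, against a median of 0.16 for all 5135 listed genes. A range at least as wide was found in 7.40% of listed genes for zfh1, 11.1% for zfh2 and 90.2% for fkh. With edgeR's TMM scaling the ranges were 0.32 for zfh1, 0.39 for zfh2 and 0.10 for fkh against a median of 0.12, so the order of zfh1 and zfh2 depends on the scaling, and 60.5% of listed genes then had a range at least as wide as that of fkh. In a bulk library, fewer cells of a type and less RNA per cell cannot be told apart.

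Markers of other cells also differed between these libraries. All 6 neuron markers were listed, with a summed level of 7115, 7122 and 6774 CPM in S1, S2 and S3. Within this sum brp (1504 CPM in S1, then 1273 and 1110), nrv3 (554, then 480 and 462) and nSyb (511, then 447 and 469) were highest in S1, while fne (2200, then 2547 and 2478) was lowest there. The remaining neuron markers changed less, elav at 1748, 1786 and 1685 CPM and Syt1 at 597, 590 and 569 CPM in S1, S2 and S3. Of 6 neuroblast markers only ase was listed, at 31.6 CPM in S1 against 58.2 and 52.6, and dpn, mira, wor, klu and grh were not. Of 6 glial markers only gcm was listed, at 22.1 CPM in S1 against 41.9 and 41.2, and repo, moody, wrapper, Eaat1 and loco were not. Of 5 hemocyte markers only Pxn was listed, at 112 CPM in S1 against 138 and 143. zfh1, which is known from glia and mesoderm too, was lowest in the same library as these 3 genes, and their part in its spread was not tested. Being lowest in S1 was not particular to markers of other cells. Of the neuron identity factors named below, otp, Lim1 and acj6 were lowest in S1 too. Among the same factors ct, Ets65A, tup, Lim3 and vvl were highest in S1, and pdm3 and onecut were highest in S2. None of 5 muscle and 4 testis markers was listed. Of 6 salivary gland markers only sage was listed, at 16.2, 16.2 and 16.3 CPM, while the glue genes Sgs3, Sgs4, Sgs7 and Sgs8, abundant products of that tissue, were not.

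**Figure D3:**
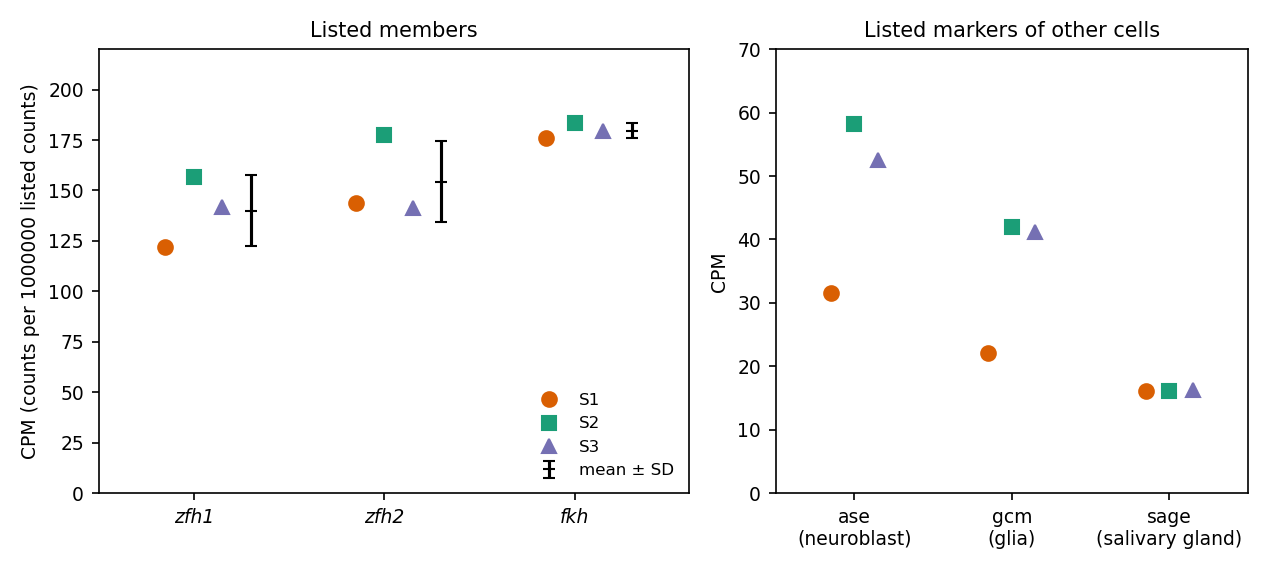
Left, RNA level in CPM of the 3 listed members in each library (S1 circles, S2 squares, S3 triangles), with the mean ± SD over the 3 libraries in black. Right, the listed neuroblast, glial and salivary gland markers in the same libraries. S1 is lowest for zfh1, at 122 CPM, and for ase and gcm, while fkh ranges from 176 to 183 CPM.

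Over all genes, listing was more frequent among genes with both kinds of peak, at 58.8% of 3857, than among all genes, at 35.5%. Gene length was not taken into account here. In the shortest length class 10.2% of genes were listed and 9.33% had both kinds of peak, against 48.8% and 55.0% in the longest. Of the 4 members with both, 2 were listed, a count too small to set apart from 58.8% or 35.5%. zfh2 and fkh had both kinds of peak within 1 kb and were listed. tj and unpg had both kinds and were not listed, as held for 11.4% of all genes. zfh1 was listed with no DamID peak within 1 kb. B-H1 and B-H2 had open chromatin, no DamID peak and no listing, as held for 31.2% of all genes. Binding and RNA were read in cells of different selection, so a gene bound and not listed is a statement about separate cell samples.

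A list of 36 other transcription factors of neuron identity gave a frame for the members. It was written with results of these data known. In it 20 genes had a Sd peak, 16 a Nerfin-1 peak and 14 both, 6 had Sd only, 2 Nerfin-1 only and 14 neither. Among those with both were eve, Lim3, tup and inv, homeodomain factors of motor neurons and interneurons or of segments. Those with neither included exex, HGTX and vvl, homeodomain or POU factors, and dimm, a basic helix-loop-helix factor of neuropeptide cells. The share with both, 38.9%, stood beside 27.7% of all genes. Among genes of the longest length class, where the median length of this list falls, 55.0% had both. That class begins at 14627 bp and many of the 36 genes are shorter, eve for example at 1477 bp. The share of 55.0% is therefore not matched to the lengths of the list. The 36 factors had a median gene length of 16175 bp against 2163 bp for all genes and 5801 bp for the members. All 36 had an ATAC peak.

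Of these 36 factors 16 were listed as expressed, beside 35.5% of all protein-coding genes. A further 18 were not, and 2 (ap and scro) carry newer identifiers that could not be looked up. The most counts went to onecut at 875 ± 20.4 CPM, pdm3 at 634 ± 9.97 CPM, ct at 608 ± 170 CPM, Ets65A at 280 ± 38.8 CPM and tup at 202 ± 28.7 CPM (SD, n = 3 for each). ct, the homeodomain factor Cut, was highest in S1, at 799 CPM against 552 and 473, and tup was also highest there, at 234 against 189 and 181. Their order of libraries differs from that of zfh1, for which S1 was lowest. For otp, Lim1 and acj6, taken up below, S1 was lowest as for zfh1. Like tj and unpg, 5 of the 14 factors with both kinds of peak were not listed (eve, inv, vnd, eg and pdm2, named after their values were seen). Over all genes with both kinds of peak 58.8% were listed, and the count here was not set apart from that share.

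Likeness over 3 libraries was measured as the Euclidean distance between log2(CPM + 1) profiles, each centred on its mean, among the 16 listed factors. Nearest to zfh1 were otp, at a distance of 0.09, and Lim1 at 0.14. otp stood at 44.2, 55.7 and 54.7 CPM and Lim1 at 91.5, 102 and 100.2 CPM in S1, S2 and S3. Nearest to zfh2 were acj6 and Lim1, both at 0.21, although both were lowest in S1 and zfh2 was lowest in S3. These distances are larger than those at zfh1, and a gene with no change would lie only somewhat farther from zfh2. No factor of the list was therefore close to zfh2. Nearest to fkh were pdm3 at 0.04 and onecut at 0.05. fkh ranged over only 0.06 on this scale, so a gene with no change would lie about as near. Its small distances therefore show little change in these genes and no shared pattern. With 3 libraries these distances describe the pools and carry no test.

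**Figure D4:**
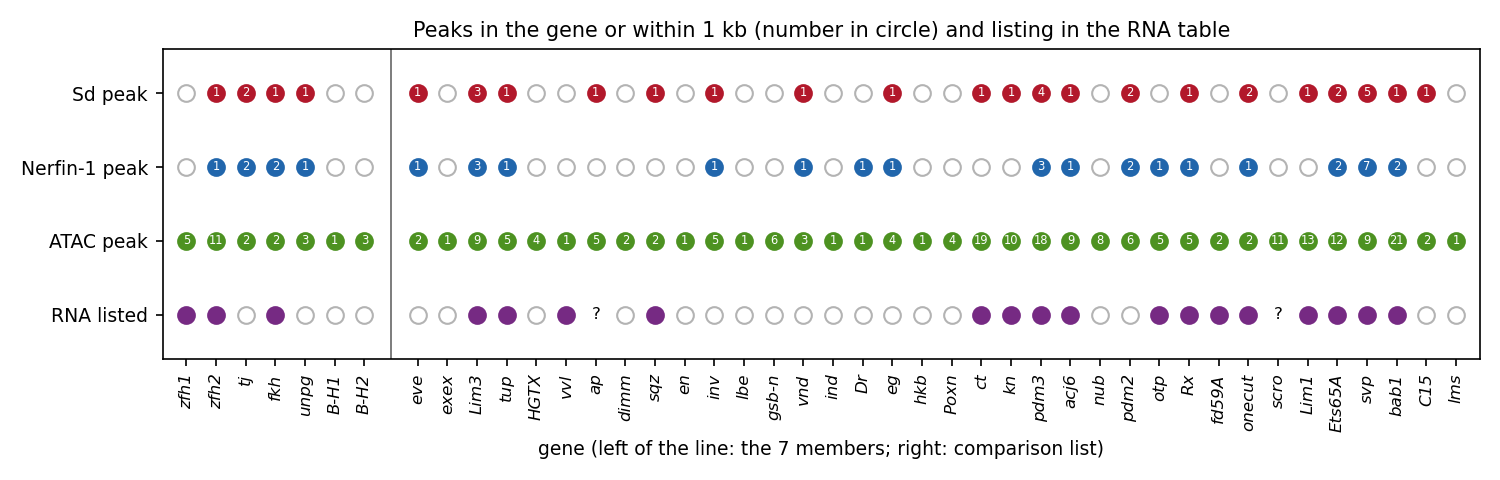
For the 7 members (left of the line) and the 36 other factors (right), filled circles mark a Sd, Nerfin-1 or ATAC peak in the gene or within 1 kb, with the number of peaks inside, and a listing in the RNA table; a question mark is an identifier that could not be looked up. Every gene has an ATAC peak, while 4 of 7 members and 14 of 36 other factors have both DamID peaks.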

How the data were processed

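Peak positions and gene pairings were used as the authors deposited them, 1 list per group: 4064 distinct Sd peaks, 3649 Nerfin-1 peaks and 35494 ATAC peaks. Per the submitters' processing notes reads were handled on dm6 with Bowtie2, MACS2, bedtools, Subread, featureCounts and edgeR; the role and settings of each, and whether counting used strand, were not stated there. An antisense gene, asRNA:CR45189, lies within zfh1 and Tdg overlaps zfh2, so counts of zfh1 and zfh2 may include reads of these. The authors deposited raw RNA read counts for 5135 genes kept as expressed. All of its columns belong to the RNA group (0 were unmapped), but which replicate each one holds is not known.

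Gene positions came from a RefSeq gene table of the same assembly, without strand, exons or sequence, so promoters, motifs and proteins were not analysed here. The files name 8165 gene identifiers, of which 167 have no symbol here, and 298 protein-coding genes carry newer identifiers, none of them a member. A peak was counted for a gene when at least 1 bp of it lay in the gene or its flanks of 1 kb. CPM is counts per 1000000 listed counts, and logs add 1. For DamID and ATAC the sequencing depth is unknown. No statistical test was run, since the RNA has a single group and the peak lists carry no replicate values; nothing says that the 3 RNA pools came from separate animals, so their SD may be partly technical. Python 3.11.15, pandas 2.3.3, edgeR 4.0.16 and DESeq2 1.42.0 were used, the last 2 for scaling alternatives only. Interval and scaling code was tested on simulated data.

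The members, lists and rules were chosen with earlier results of these data known. The genes named are the 7 members; protein-coding genes that a member's peaks overlap; of the comparison list the 5 listed genes with most counts, the first 4 with both peaks and the first 4 with neither; and the 2 nearest profiles per listed member. Besides these, cell type markers come from separate lists, chosen with the same knowledge, and not all of them are named. The non-coding genes and neighbours of members were named after their values were seen.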

Additional observations from a re-analysis of the deposited data

How the results depend on the processing

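With no flank, 2 members had a Sd peak (27.5% of all genes) and 2 had both kinds (zfh2 and tj; 21.0%). With the longer 50% of peaks, 2 had both (zfh2 and tj; 14.6%). Spans up to the nearest protein-coding genes that do not overlap the gene were added after seeing the data. With these spans 7 had a Sd peak, 7 a Nerfin-1 peak and 7 both (43.9%, 41.4% and 35.4% of all genes). Flanks of 5 kb gave 5 members with both (46.9% of all genes), at least 50% of the peak gave 4 (22.7%), and the authors' assignment gave 4 (20.9%). Listing at 10 CPM in every library left 3 members. Leaving out S1, S2 or S3 in turn gave means of 132 to 149 CPM for zfh1, 143 to 161 for zfh2 and 178 to 181 for fkh. Scaling by edgeR's TMM or DESeq2's size factors changed the sign of small deviations from the mean, that of fkh in S1 (-0.03, then 0.02 or 0.03 on the log2 scale) and of zfh1 in S3 (0.02, then -0.04 with each), so neither is given a direction. In S3 fkh moved from 0.00 to -0.06 (TMM) or -0.07 (DESeq2). zfh1 stayed lowest in S1 and highest in S2 under both. No paired analysis was possible because the peak lists carry no replicate values and the RNA table has a single group.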
